A study of Columba livia with 12 samples.

Results

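A set of genes of fat storage was followed through the growth of pigeon breast muscle: DGAT2, G0S2, GPD1, ADIPOQ and CIDEA (gene IDs 102087439, 102088751, 102088900, 102096916 and 106145993), 5 of the 12918 entries of the deposited mRNA table. The first 3 were taken by gene ID and the other two by their RefSeq symbols. They were chosen by their deposited TPM at the ages compared, with those differences already known, so their own values are given as a description, with no test. The samples were breast muscle taken from pigeons (Columba livia) of the White-King strain at 1 day (1D), 14 days (14D) and 28 days (28D) of age, in 3 libraries each. Libraries of birds aged 2 years (2Y) were not analysed here, because the names of 3 value columns could not be matched to any label. The labels give no treatment and 1 strain for all groups. They do not say whether libraries of an age come from separate birds, and every p-value therefore measures the spread between libraries only. Values are TPM, a share of all transcripts in a library that is scaled by transcript length, so levels of different genes can be set side by side. Depth cannot be read from TPM, and the counting error behind a value is unknown.

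Triacylglycerol is the storage form of fat. It is built on glycerol-3-phosphate, which GPD1 makes from a product of glycolysis, by the stepwise addition of fatty acids, and DGAT2 adds the last of them at the endoplasmic reticulum and the lipid droplet. In mammals G0S2 binds and inhibits PNPLA2 (adipose triglyceride lipase), the enzyme that begins the breakdown of stored triacylglycerol, and CIDEA sits on lipid droplets and promotes their fusion. ADIPOQ encodes adiponectin, a hormone that mammals secrete mainly from fat cells and that acts through the receptors ADIPOR1 and ADIPOR2. Pigeon breast muscle is the flight muscle, and in flying birds fatty acids are its main fuel in sustained flight.

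DGAT2, which catalyses the final step of triacylglycerol synthesis, was close to absent at hatching and abundant at 28D. Its levels in the 1D libraries were 3.57, 1.22 and 0.426 TPM. At 14D they were 109, 133 and 22.6 TPM, and at 28D they were 529, 449 and 601 TPM. The libraries of the 3 ages did not overlap. In whole muscle, fewer cells of a type and less RNA per cell cannot be told apart. At 14D replicate 3 lay far below the rest. The means were 1.74 ± 1.63, 88.2 ± 58.0 and 526 ± 76.1 TPM (SD, n = 3 each), and the mean at 28D was 303 times that at 1D. Without 1D replicate 1 the 1D mean was 0.823 TPM, so this fold depends on that library. Without 14D replicate 3 the 14D mean was 121 TPM, and the log2 change of TPM + 1 was 5.64 in place of 4.85 from 1D to 14D and 2.11 in place of 2.90 from 14D to 28D. In that library 66 of 120 tested lipid genes other than the members had their lowest 14D value (55.0%, against 41.7% of all tested genes). Whether this touches the low DGAT2 value was not tested.

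G0S2, the lipase inhibitor, was the most abundant member at every age. It stood at 80.1, 88.4 and 57.1 TPM in the 1D libraries, at 865, 1192 and 2229 TPM at 14D, and at 4859, 3592 and 6177 TPM at 28D. Here too no library of one age overlapped those of another, but the 14D library that was lowest for DGAT2 was the highest for G0S2. The means were 75.2 ± 16.2, 1428 ± 712 and 4876 ± 1292 TPM (SD, n = 3 each), which is 64.8 times higher at 28D than at 1D. Among the 12918 entries ranked by TPM, G0S2 stood between places 1360 and 2026 at 1D, between 32 and 117 at 14D, and between 14 and 24 at 28D. In the reference gene table the G0S2 locus overlaps that of LAMB3, a laminin chain, and whether the authors' values keep the strands apart is not given in the sources used here. LAMB3 stood at 0.488 ± 0.179, 0.518 ± 0.344 and 1.86 ± 0.0937 TPM (SD, n = 3 each) and was called higher at 28D than at 1D (log2 change 0.95 ± 0.20, SE; adjusted p = 0.00185, limma). It was also called between 14D and 28D (0.0486), a call lost without any 1D or 14D library (0.053 to 0.0893). Whether reads were shared between the overlapping genes was not tested.

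GPD1, the cytosolic glycerol-3-phosphate dehydrogenase, had reached its later level by 14D. It stood at 1.19, 1.66 and 4.09 TPM at 1D, at 253, 324 and 337 TPM at 14D and at 243, 335 and 385 TPM at 28D. The 1D libraries lay far below all others, while those of 14D and 28D overlapped over nearly their whole range. The means were 2.31 ± 1.56, 305 ± 45.1 and 321 ± 71.8 TPM (SD, n = 3 each). From 14D to 28D the log2 change of TPM + 1 was 0.06 as deposited, 0.12 after median-ratio rescaling and -0.05 after quantile normalization, so its sign depended on the scaling. The GPD1 locus overlaps that of LOC135576688 in the reference gene table, a gene with no row in the mRNA table. Whether reads were shared between these 2 genes was not tested.

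ADIPOQ, the adiponectin gene, was already well above the floor of the table at hatching and moved over a much smaller range. Its levels were 53.2, 42.1 and 34.7 TPM at 1D, 119, 94.5 and 102 TPM at 14D, and 199, 163 and 167 TPM at 28D. The libraries of the 3 ages formed separate steps. The means were 43.4 ± 9.31, 105 ± 12.6 and 176 ± 19.8 TPM (SD, n = 3 each), so that the mean at 28D was 4.06 times that at 1D. CIDEA, the droplet fusion protein, stayed low throughout, with 6.29, 5.47 and 4.28 TPM at 1D, 9.94, 12.7 and 7.53 TPM at 14D, and 10.6, 7.91 and 7.56 TPM at 28D. Its 1D libraries lay below the others, and those of 14D and 28D overlapped. Its means were 5.35 ± 1.01, 10.1 ± 2.58 and 8.68 ± 1.66 TPM (SD, n = 3 each).

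**Figure D1:**
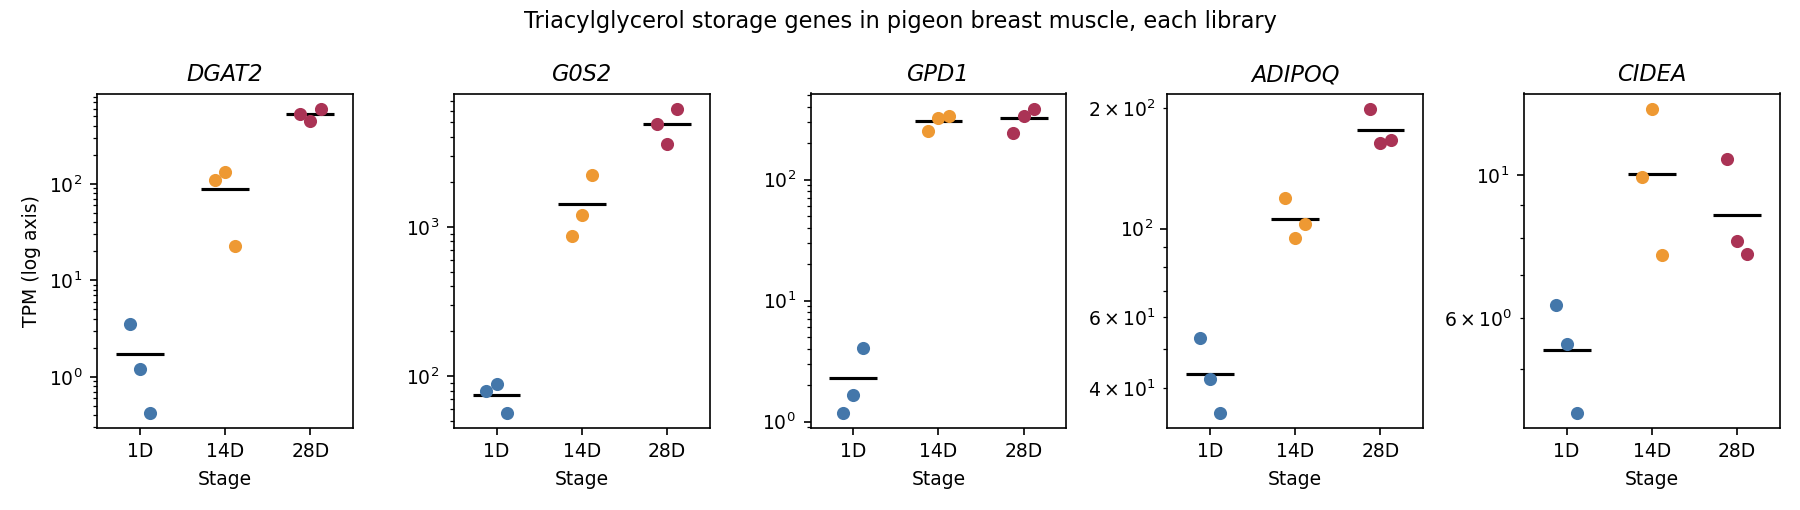
TPM of each member in each library (points, log axes that differ between panels) by stage, with the mean of the 3 libraries as a bar. DGAT2, G0S2 and ADIPOQ step upward at both intervals, GPD1 steps once, from a mean of 2.31 to 305 TPM, and CIDEA stays at or below 12.7 TPM.

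All 5 members passed the filter on low values (at least 1 TPM in at least 3 libraries). The 14D libraries lay above the 1D libraries without overlap in 5 of 5 members, a pattern found in 17.1% of the 11951 genes tested, with the reverse in 44.9%. The 28D libraries lay above those of 14D in 3 of 5, against 6.75% of all genes, and above those of 1D in 5 of 5, against 19% of all genes. Since the members were chosen with these differences known, nothing is read from those counts. The 3 comparisons share libraries with each other. The log2 changes of TPM + 1 from 1D to 28D were 7.75 for DGAT2, 6.68 for GPD1, 5.99 for G0S2, 2.01 for ADIPOQ and 0.61 for CIDEA. The median of all tested genes was -0.38 in the same comparison. Median-ratio rescaling, which brings that median to -0.01, gave 8.05, 6.99, 6.41, 2.43 and 0.97 for the same genes.

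The members differed in timing. At 14D the mean of GPD1 was 95.0% of its 28D mean, that of ADIPOQ 59.8%, that of G0S2 29.3% and that of DGAT2 16.8%. The 14D mean of CIDEA was 116% of its 28D mean, a gap smaller than the spread between its libraries. At 1D the means of DGAT2, GPD1 and G0S2 were 0.330%, 0.720% and 1.54% of their 28D means, whereas ADIPOQ and CIDEA already stood at 24.6% and 61.6%. The lowest of these shares depend on single libraries, since the 1D mean of DGAT2 was 0.823 TPM in place of 1.74 without 1D replicate 1, and that of GPD1 was 1.42 TPM in place of 2.31 without 1D replicate 3.

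**Figure D2:**
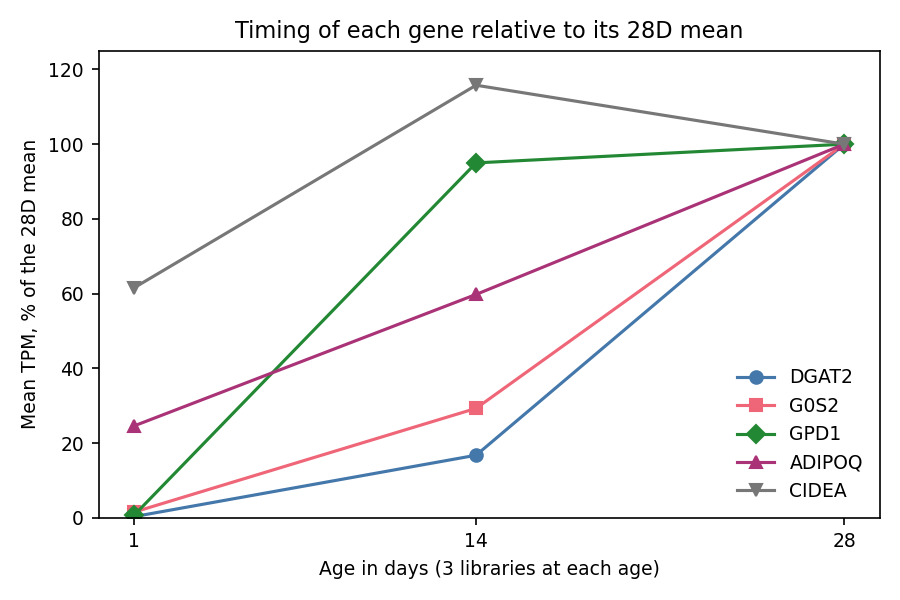
Mean TPM of each member as a percentage of its own 28D mean (vertical axis) against age in days (horizontal axis), 3 libraries per age. GPD1 is at 95.0% by 14D, while G0S2 is at 29.3% and DGAT2 at 16.8%.

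The order of the levels changed with age. At 1D G0S2 led, followed by ADIPOQ and CIDEA, and below them GPD1 and DGAT2, whose libraries overlapped. At 14D the order was G0S2, GPD1, then ADIPOQ and DGAT2, which overlapped, then CIDEA. At 28D DGAT2 had moved to second place, its lowest library (449 TPM) above the highest of GPD1 (385 TPM), with ADIPOQ and CIDEA after them. In rank, DGAT2 stood between places 10017 and 12355 of the table at 1D and between 199 and 262 at 28D. GPD1 moved from places 9510 to 11445 at 1D to places 282 to 391 at 14D and 289 to 438 at 28D.

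Within an age the members did not all move in step from library to library. Over the 9 libraries the Pearson correlation of log2(TPM + 1) was 0.94 for DGAT2 and G0S2 and 0.89 for DGAT2 and GPD1, values that hold the shared stage differences. For the deviations of the same 9 libraries from their stage means it was -0.43 and -0.51. On that scale DGAT2 and CIDEA had 0.80, ADIPOQ and CIDEA 0.48, and DGAT2 and ADIPOQ 0.45. GPD1 had -0.92 with ADIPOQ and -0.66 with CIDEA. G0S2 had -0.04 with GPD1, 0.06 with ADIPOQ and -0.25 with CIDEA. These are descriptions over few libraries, which also share the scaling of TPM to a fixed total.

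Relatives and partners of each member, fixed as a list whatever their result, were read in the same fit. It was limma's moderated test on log2(TPM + 1) with Benjamini-Hochberg adjustment over the 11951 genes of each comparison. A gene was called changed at an adjusted p below 0.05, and "rose" and "fell" are used for called genes only. Of all genes the fit called 52.8% from 1D to 14D and 60.3% from 1D to 28D. From 1D to 14D it called 1623 genes higher (13.6%) and 4688 lower (39.2%), and from 1D to 28D 1960 higher (16.4%) and 5249 lower (43.9%). After median-ratio rescaling the called genes split almost evenly, with 2925 higher and 3101 lower at 14D and 3405 higher and 3537 lower at 28D. This rescaling brings the median change of all tested genes to 0.01 and -0.01, so a near-even split is largely set by the method. Between 14D and 28D the fit on the values as deposited called 65 higher (0.544%) and 104 lower (0.87%), a total of 1.41%. That total fell from 169 genes to 23 without 28D replicate 3 and to 40 without 14D replicate 3. Without 28D replicate 1 that total was 65, and without 1D replicate 3 it was 104.

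PNPLA2, the lipase that G0S2 inhibits in mammals, did not pass in any comparison. It stood between 81.5 and 100.01 TPM at 1D, at 186, 157 and 121 TPM at 14D, and at 82.6, 341 and 118 TPM at 28D. The adjusted p was 0.148 for 14D against 1D (log2 change 0.76 ± 0.41, SE) and 0.152 for 28D against 1D (0.73 ± 0.41). For 14D against 1D it was 0.00913 without 28D replicate 2, the library at 341 TPM, and 0.0381 after quantile normalization. For 28D against 1D it was 0.0261 without 28D replicate 1 and 0.0437 after median-ratio rescaling. ABHD5, the protein that activates PNPLA2, rose from 13.5 ± 4.58 at 1D to 27.0 ± 5.09 at 14D and 38.3 ± 11.7 TPM at 28D (SD, n = 3 each; adjusted p = 0.0102 and 0.000859 against 1D, limma). The ratio of G0S2 to PNPLA2 transcripts lay between 0.644 and 1.08 in the 1D libraries, between 4.65 and 18.4 at 14D and between 10.5 and 58.8 at 28D. The ranges of 14D and 28D overlapped, through the 28D library with the high PNPLA2 value. HILPDA, another inhibitor of PNPLA2, was not analysed here. G0S2 was 4.70 to 7.48 times as abundant as ABHD5 at 1D and 110 to 160 times at 28D.

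GPD1 has a close paralogue, GPD1L, and a partner enzyme, GPD2, which returns glycerol-3-phosphate to its precursor at the mitochondrial inner membrane and so passes cytosolic reducing equivalents to the respiratory chain. GPD1L stood at 54.5 ± 12.7, 36.4 ± 5.58 and 36.8 ± 9.55 TPM at the 3 ages (SD, n = 3 each) and did not pass against 1D (adjusted p = 0.0633 at 14D and 0.0541 at 28D, limma). It was called lower at 14D without 28D replicate 1 (0.0335) and at 28D without 1D replicate 3 or 28D replicate 2 or 3 (0.0445 to 0.0454). With a replicate block GPD1L was called lower at both ages (0.0326 and 0.0267). The ratio of GPD1 to GPD1L was 0.0237 to 0.0918 at 1D, 7.69 to 9.39 at 14D and 7.95 to 9.44 at 28D, so GPD1L was the more abundant transcript at hatching in all 3 libraries and GPD1 in all 6 later ones. GPD2 rose from 25.7 ± 1.10 to 56.7 ± 19.5 TPM at 14D (adjusted p = 0.00672). At 28D it stood at 44.5 ± 14.4 TPM (adjusted p = 0.0367 against 1D), a call that was lost without any 1D library or without 28D replicate 2 or 3, with adjusted p up to 0.132. Glycerol kinase, GK, the other source of glycerol-3-phosphate, varied more between libraries than between ages, with 43.9, 31.9 and 46.0 TPM at 1D, 70.4, 12.1 and 3.21 TPM at 14D and 77.1, 11 and 29.5 TPM at 28D. It did not pass (adjusted p = 0.219 for 14D and 0.7 for 28D against 1D, limma), but was called lower at 14D without 14D replicate 1 (0.0143).

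**Figure D3:**
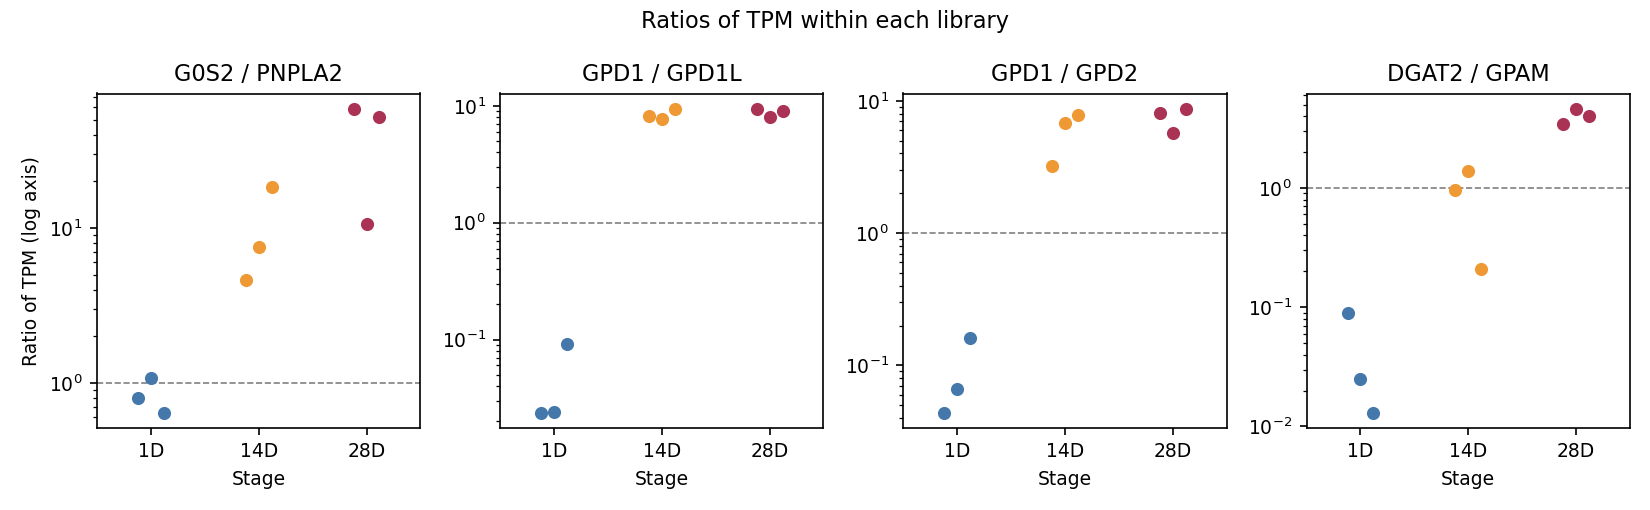
Ratio of the TPM of a member to that of a partner or relative in each library (points, log axes), by stage, with a dashed line at equal levels. GPD1 passes GPD1L and GPD2 by 14D in every library, the ratio of G0S2 to PNPLA2 reaches 10.5 to 58.8 at 28D, and that of DGAT2 to GPAM exceeds 3 in each 28D library.

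Of the relatives of DGAT2, MOGAT1, an acyltransferase of the same family, was measured at low levels, and DGAT1 and MOGAT2 were not analysed here. MOGAT1 stood at 1.72 ± 0.934, 1.33 ± 0.786 and 7.22 ± 3.25 TPM (SD, n = 3 each). It rose from 1D to 28D (log2 change 1.58 ± 0.37, SE; adjusted p = 0.00413, limma). Its call between 14D and 28D (adjusted p = 0.0499) was lost with a pseudocount of 0.1 (0.0649), without 1D replicate 1 or 3, 14D replicate 1 or 3, or 28D replicate 2 or 3 (0.0701 to 0.157). In the 28D libraries DGAT2 was 58.5 to 139 times as abundant as MOGAT1.

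Both receptors of adiponectin were measured. ADIPOR2 rose from 33.2 ± 0.936 at 1D to 59.4 ± 8.63 at 14D and 79.7 ± 5.74 TPM at 28D (SD, n = 3 each; adjusted p = 0.000761 and 3.67e-05 against 1D, limma). ADIPOR1 stood at 13.1 ± 0.387, 14.3 ± 2.19 and 17.0 ± 0.416 TPM; as deposited it was not called (adjusted p = 0.562 and 0.0561), but was called higher than at 1D after median-ratio rescaling (0.00859 and 0.000353) and, at 28D, without 14D replicate 2 (0.0289). CDH13, which binds circulating adiponectin in mammals, stood at 94.0 ± 3.17, 91.7 ± 24.5 and 80.9 ± 4.13 TPM, and neither age passed against 1D (adjusted p = 0.771 and 0.321). Of CIDEA's relatives, CIDEC stood at 1.42 ± 2.11, 0.660 ± 0.106 and 1.69 ± 0.477 TPM. It did not pass (adjusted p = 0.744 and 0.381), but was called higher at 28D without 1D replicate 1 (0.00367), and CIDEB was not analysed here. PLIN1, the droplet coat protein of fat cells, stood at 4.17 ± 4.11, 6.56 ± 0.820 and 10.6 ± 3.43 TPM and rose from 1D to 28D (adjusted p = 0.0216), a call lost without 1D replicate 2 or 3 or 28D replicate 1 or 2 (adjusted p up to 0.0802). Without 1D replicate 1 it was also called higher at 14D (0.00466 in place of 0.148).

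Across 7 lists of lipid genes, from which the members were left out, 120 genes were tested. Of the other entries 3 had values too low to test, and 39 were not matched by symbol and not analysed here. The lists were chosen with earlier results of these data known. Their counts, shares and medians are therefore a description and no independent support. From 1D to 14D 25 of the 120 rose and 28 fell, or 20.8% and 23.3%, beside 13.6% and 39.2% of all genes. Their median log2 change was -0.06, beside -0.31 for all genes, and after median-ratio rescaling 44 were higher and 13 lower. From 1D to 28D 33 rose and 29 fell, or 27.5% and 24.2%, beside 16.4% and 43.9% of all genes. The median was 0.14 beside -0.38 for all genes, and 58 were higher and 19 lower after rescaling. Of all genes called after rescaling, 48.5% were higher at 14D and 49.0% at 28D, against 1D. From 14D to 28D 3 of the 120 were called, which is MOGAT1 and GOT1 higher and KLF5 lower. The total of 53 calls between 1D and 14D fell to 34 without 1D replicate 2.

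**Figure D4:**
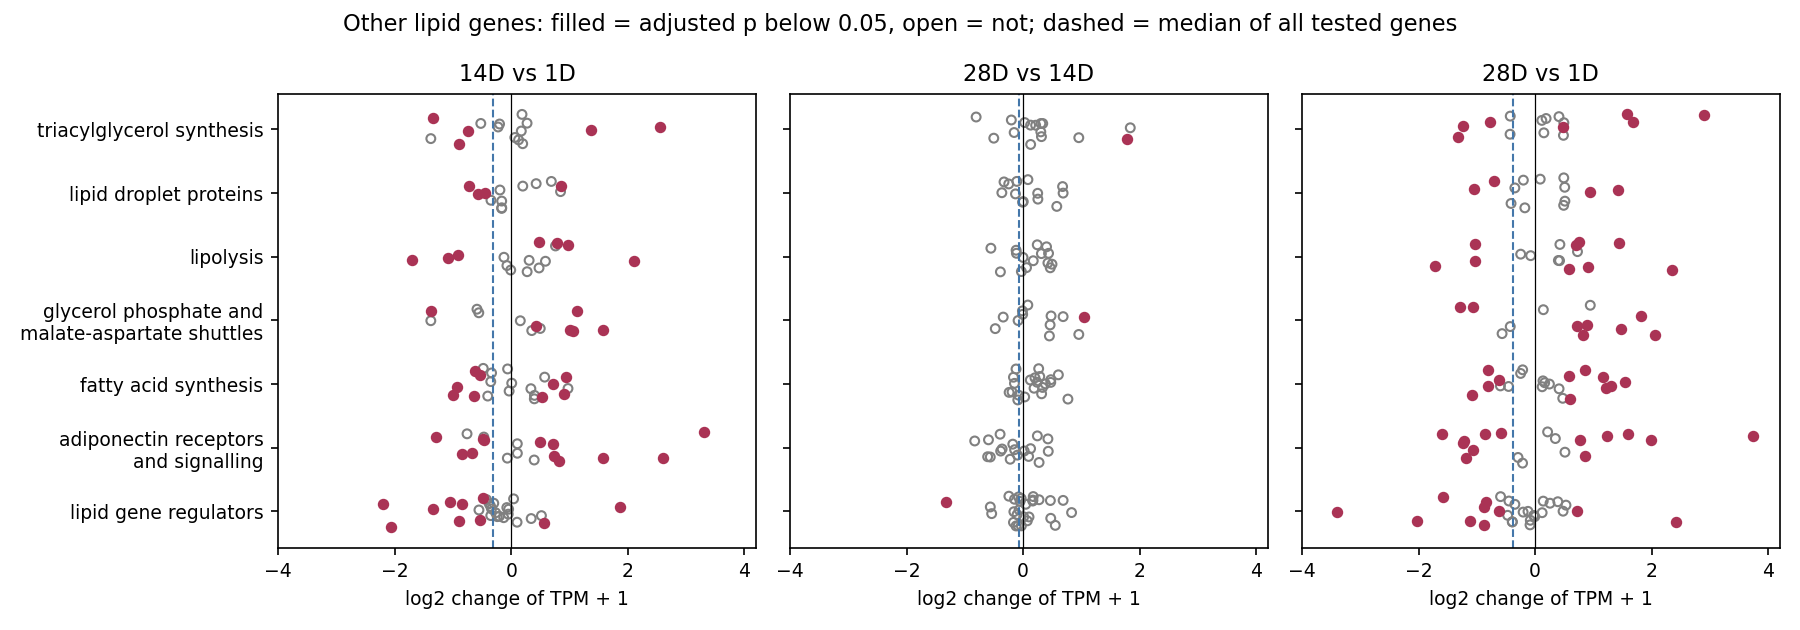
Log2 change of TPM + 1 (horizontal axis) of the other lipid genes by list, for each of the 3 comparisons; filled points passed the test, open points did not, and the dashed line is the median of all tested genes. Calls lie on both sides of 0 in every list against 1D, and 3 genes of the 120 are called between 14D and 28D.

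Calls in triacylglycerol synthesis went in both directions. At 14D 2 of its 15 tested genes rose and 3 fell, and at 28D 4 rose and 3 fell against 1D, with a median of 0.19. The share higher at 14D was 13.3%, close to the 13.6% of all genes, and at 28D it was 26.7%, beside 16.4%. The 3 of 15 lower at each age stood beside 39.2% of all genes at 14D and 43.9% at 28D. After median-ratio rescaling 5 were higher and 1 lower at 14D, and 9 higher and 2 lower at 28D. GPAM, the mitochondrial acyltransferase that adds the first fatty acid, stood at 39.7, 48.9 and 32.6 TPM at 1D, at 113, 94.9 and 108 TPM at 14D and at 153, 97.2 and 151 TPM at 28D, and rose at both ages against 1D (adjusted p = 0.000341 and 6.41e-05, limma). GPAT4, which does the same step at the endoplasmic reticulum, fell from 50.0 ± 2.44 to 26.3 ± 1.94 and 28.9 ± 3.46 TPM (adjusted p = 0.000378 and 0.000717, with 0.0572 at 28D after median-ratio rescaling). LPIN1, the phosphatase that makes diacylglycerol for DGAT2, rose from 4.48 ± 1.17 to 34.0 ± 18.7 and 39.2 ± 4.15 TPM (adjusted p = 0.000138 and 4.2e-05). AGPAT4, an acyltransferase of the middle step, stood at 8.81 ± 1.47, 5.95 ± 1.84 and 2.88 ± 0.235 TPM and fell from 1D to 28D (adjusted p = 0.000353). AGPAT2, the middle-step enzyme of fat cells in mammals, fell from 18.2 ± 3.60 to 8.05 ± 5.48 TPM at 14D (adjusted p = 0.0394, or 0.103 after median-ratio rescaling and 0.0512 to 0.111 without any 1D library, 14D replicate 3 or 28D replicate 3) and stood at 26.4 ± 7.30 TPM at 28D. Its lowest value, 1.83 TPM, was in the same 14D library that was low for DGAT2. The ratio of DGAT2 to GPAM, the last against the first enzyme of the path, was 0.0131 to 0.0899 at 1D, 0.208 to 1.40 at 14D and 3.46 to 4.62 at 28D.

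Lipid droplet proteins had 13 tested genes, of which 1 rose and 3 fell at 14D and 2 rose and 2 fell at 28D against 1D. The shares were 7.69% and 23.1% at 14D, beside 13.6% and 39.2% of all genes. At 28D they were 15.4% and 15.4%, beside 16.4% and 43.9%. The rescaled values gave 4 higher and 0 lower at 14D, and 6 higher and 1 lower at 28D. LDAF1, a protein of droplet formation, rose from 43.9 ± 5.46 to 81.2 ± 17.6 TPM at 14D (adjusted p = 0.00789, limma). PLIN2, the droplet coat protein found outside fat cells as well, stood at 141, 109 and 77.3 TPM at 1D, at 256, 169 and 116 TPM at 14D and at 170, 170 and 296 TPM at 28D. It passed at 28D (adjusted p = 0.0284, lost without 1D replicate 2 or 3 or 28D replicate 3), and at 14D after median-ratio rescaling (0.0217 in place of 0.0995) or without 14D replicate 3 (0.0336). ANXA2, SPART and AUP1 fell at 14D as deposited (adjusted p = 0.0347, 0.0388 and 0.0197), and none of these 3 was called after median-ratio rescaling (0.186, 0.335 and 0.677). As deposited, leaving out 14D replicate 1 or 3 or 1D replicate 1 or 2 also ended the call of ANXA2 (0.106 to 0.115), leaving out any of these or 1D replicate 3 that of SPART (0.0515 to 0.137), and leaving out 14D replicate 2 or 1D replicate 1 or 3 that of AUP1 (0.0564 to 0.0736). At 28D ANXA2 stood at 262 ± 30.7 TPM, against 550 ± 119 TPM at 1D, and was called lower as deposited (adjusted p = 0.00473) and after median-ratio rescaling (0.028). SPART was called lower at 28D as deposited (0.0134) but not after that rescaling (0.185).

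Among 15 tested genes of lipolysis 4 rose and 3 fell at 14D, and 6 rose and 3 fell at 28D, against 1D, or 7 higher and 3 lower and 10 higher and 3 lower after median-ratio rescaling. Of all genes as deposited, 13.6% rose and 39.2% fell at 14D, and 16.4% rose and 43.9% fell at 28D. MGLL, the monoacylglycerol lipase of the last step, stood at 67.0, 70.5 and 64.0 TPM at 1D, at 371, 292 and 229 TPM at 14D and at 301, 336 and 407 TPM at 28D, and rose at both ages (adjusted p = 1.58e-05 and 4.34e-06, limma). FAF2 and UBXN4, proteins of protein degradation at the endoplasmic reticulum, fell by 28D: FAF2 stood at 67.0 ± 5.79 TPM at 1D and 32.1 ± 1.91 TPM at 28D (adjusted p = 0.000223), UBXN4 at 213 ± 18.9 and 104 ± 0.618 TPM (0.000114).

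The shuttles that carry reducing equivalents into mitochondria, to which GPD1 belongs, had 12 tested genes. Against 1D 5 rose and 1 fell at 14D, or 41.7% and 8.33%, beside 13.6% and 39.2% of all genes. At 28D 6 rose and 2 fell, or 50.0% and 16.7%, beside 16.4% and 43.9% of all genes, with a median of 0.77. With rescaled values 6 were higher and 1 lower at 14D, and 7 higher and 1 lower at 28D. In the malate-aspartate shuttle GOT1, the cytosolic aminotransferase, stood at 179 ± 7.36, 373 ± 98.4 and 759 ± 145 TPM and GOT2, the mitochondrial one, at 127 ± 4.90, 287 ± 67.8 and 457 ± 80.2 TPM. Both rose at 14D (adjusted p = 0.0025 and 0.000794, limma) and at 28D (2.08e-05 and 2.74e-05) against 1D. The further rise of GOT1 from 14D to 28D (adjusted p = 0.0436) was lost on leaving out any library other than 14D replicate 1 or 2 (0.0687 to 0.118), and after quantile normalization (0.0526). The paralogous aspartate-glutamate carriers moved in opposite directions: SLC25A12 rose from 82.8 ± 19.3 to 230 ± 22.2 TPM and SLC25A13 fell from 21.5 ± 3.28 to 8.33 ± 2.33 TPM at 28D (adjusted p = 4.55e-05 and 0.000358).

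Of 21 tested genes of fatty acid synthesis 4 rose and 5 fell at 14D, and 7 rose and 4 fell at 28D, against 1D. The shares were 19.0% and 23.8% at 14D, beside 13.6% and 39.2% of all genes. At 28D they were 33.3% and 19.0%, beside 16.4% and 43.9%. Rescaling by median ratios gave 9 higher and 1 lower at 14D and 11 higher and 2 lower at 28D. The risers at 28D included ACACB, the acetyl-CoA carboxylase whose product restrains fatty acid entry into mitochondria (23.2 ± 1.92 to 53.3 ± 3.82 TPM, adjusted p = 0.00505, limma), and OXSM, an enzyme of mitochondrial fatty acid synthesis (8.05 ± 0.5 to 25.7 ± 4.45 TPM, adjusted p = 2.13e-05). INSIG1, which retains the sterol-sensing machinery in the endoplasmic reticulum, fell from 28.5 ± 5.36 to 15.8 ± 3 TPM at 28D (adjusted p = 0.0243, or 0.162 after median-ratio rescaling and 0.0698 to 0.0839 without 1D replicate 1 or 3 or 28D replicate 2). Among 18 genes of adiponectin reception and AMP-activated kinase signalling 7 rose and 5 fell at 14D, and 6 rose and 7 fell at 28D. That is 38.9% and 27.8% at 14D and 33.3% and 38.9% at 28D, beside the same shares of all genes. After rescaling 9 were higher and 2 lower at 14D, and 9 higher and 5 lower at 28D. PAQR9, a receptor of the same protein family as ADIPOR1 and ADIPOR2, stood at 1.67, 3.63 and 1.81 TPM at 1D and at 40.9, 38.2 and 49.3 TPM at 28D (adjusted p = 1.66e-06). The AMP-activated kinase subunit PRKAB2 rose from 7.58 ± 2.24 to 24.5 ± 1.86 TPM at 28D while PRKAG2 fell from 25 ± 6.15 to 7.66 ± 2.18 TPM (adjusted p = 0.000346 and 0.00122). PRKAG3, a paralogue of PRKAG2, rose from 7.85 ± 2.05 to 33.5 ± 3.89 TPM at 28D (adjusted p = 1.21e-05).

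Among 28 tested regulators of lipid genes 2 rose and 8 fell at each of 14D and 28D against 1D, or 7.14% and 28.6%. All genes had 13.6% and 39.2% at 14D and 16.4% and 43.9% at 28D. After median-ratio rescaling 4 were higher and 5 lower at 14D, and 6 higher and 5 lower at 28D. PPARG, the master regulator of fat cell formation, stood at 4.32, 3.67 and 3.82 TPM at 1D, at 3.42, 4.96 and 3.93 TPM at 14D and at 4.46, 5.35 and 3.62 TPM at 28D, with no separation of the ages. It did not pass as deposited (adjusted p = 0.867 at 14D and 0.521 at 28D, limma), and was called higher at 28D after median-ratio rescaling (0.0282). KLF5, a factor that promotes early fat cell differentiation in mammals, stood at 30.8, 26.3 and 24.6 TPM at 1D, at 4.88, 5.39 and 6.94 TPM at 14D and at 1.65, 1.31 and 2.11 TPM at 28D. It fell at both intervals (adjusted p = 1.55e-05 from 1D to 14D and 0.0127 from 14D to 28D), and these calls held under every alternative run. PPARA, a nuclear receptor that activates fatty acid oxidation, fell from 40.6 ± 7.24 to 9.27 ± 2.10 TPM at 28D (adjusted p = 0.000627). The paralogous oestrogen-related receptors moved in opposite directions, with ESRRB higher at 28D (5.60 ± 0.838 to 35.4 ± 11.3 TPM, adjusted p = 9.34e-06) and ESRRG lower (49.1 ± 14.8 to 16.3 ± 6.45 TPM, adjusted p = 0.00168).

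Whole muscle holds other cells besides fibres. Of 18 adipocyte markers besides ADIPOQ, 7 had a row in the mRNA table. Their summed level was 200 to 371 TPM at 1D, 268 to 451 TPM at 14D and 278 to 457 TPM at 28D. Most of it was LPL, RBP7 and GPAM. The sum of PLIN1, CIDEC and PPARG alone was 4.92 to 17.0 TPM at 1D, 10.4 to 13.2 TPM at 14D and 11.7 to 20.7 TPM at 28D. SLC7A10 was listed at 0 in every 1D library and stood at no more than 1.81 TPM later, and no other of the 7 was at 0 in a whole age. Of the 6 tested, GPAM rose at 14D and GPAM and PLIN1 rose at 28D against 1D, and none fell. The shares higher were 16.7% at 14D and 33.3% at 28D, beside 13.6% and 16.4% of all genes. After median-ratio rescaling 4 of the 6 were called higher at 28D, with PPARG (adjusted p = 0.0282) and LPL (0.0257, or 0.246 as deposited) besides. LPL was also called at 28D without 14D replicate 3 (0.0468). CEBPA and TRARG1 sat in the lncRNA table and were not tested. CEBPA was at 0.387 TPM or less in every library. TRARG1 was lower after 1D, at 0.530 to 0.771 TPM in the 1D libraries and 0.0683 to 0.283 TPM in the later ones. The highest 1D values of PLIN1 (8.84 TPM) and CIDEC (3.85 TPM) were in replicate 1, the 1D library that was also highest for DGAT2, ADIPOQ and CIDEA. Among the 1D libraries it was highest for RBP7, LPL and PPARG too, while GPAM was highest in 1D replicate 2. The red blood cell markers HBAD, SLC4A1, RHAG, EPB42 and TAL1 were likewise highest in 1D replicate 1 among the 1D libraries. The part of fat cells in these results was not tested.

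**Figure D5:**
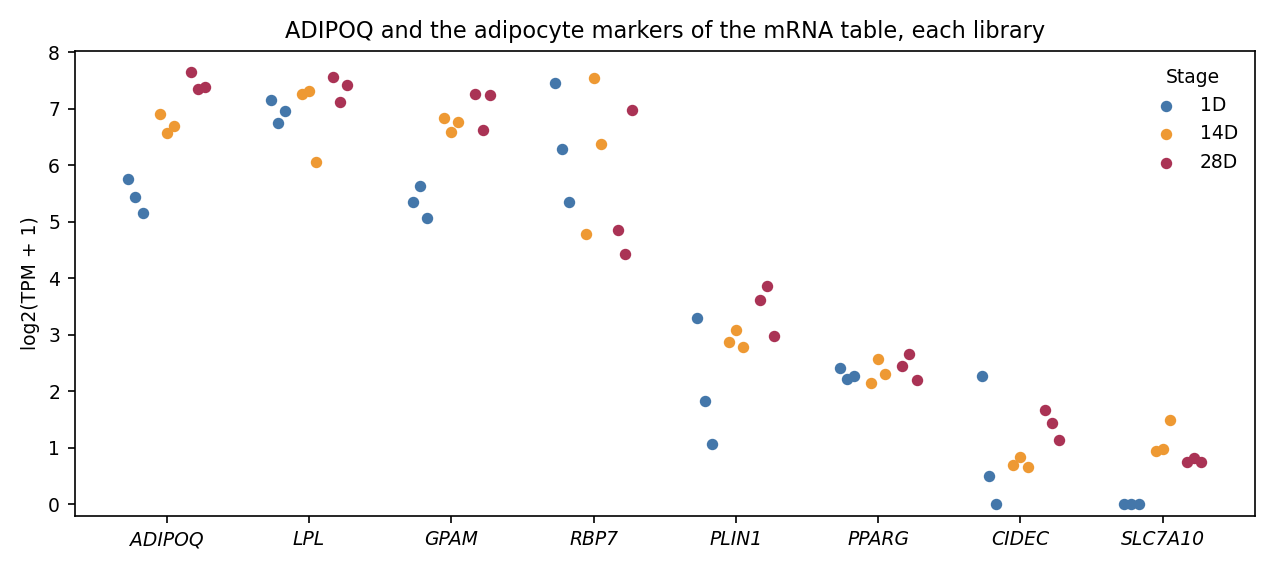
Log2(TPM + 1) of ADIPOQ and of the 7 adipocyte markers of the mRNA table in each library (points), colored by stage. ADIPOQ separates all 3 stages, GPAM and SLC7A10 separate 1D from the later stages, and PPARG, CIDEC, RBP7, LPL and PLIN1 overlap between 1D and later stages.

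Markers of other cells moved with age as well. Their counts of calls at 28D against 1D stand beside 16.4% of all tested genes called higher and 43.9% lower. These lists too were chosen with earlier results of these data known. Not matched by symbol were 5 of 20 fibre, 2 of 14 fibroblast and 3 of 12 endothelial markers. The same held for 4 of 12 macrophage and 8 of 13 red blood cell markers. Each sum covers the matched markers only. Fibroblast markers summed to 7442 to 9215 TPM at 1D, 2107 to 2383 TPM at 14D and 1109 to 1189 TPM at 28D, with 9 of 12 lower at 28D than at 1D and 0 higher. Endothelial markers stood at 648 to 751 TPM at 1D, 927 to 1507 TPM at 14D and 1287 to 1342 TPM at 28D, with 8 of 9 higher and 0 lower, and macrophage markers at 102 to 184 TPM, 449 to 855 TPM and 504 to 800 TPM, with 4 of 7 higher and 0 lower. Most of the later macrophage sum was CD74, which stood at 34.4 ± 21.7, 463 ± 127 and 540 ± 146 TPM (SD, n = 3 each). In the endothelial list CD36 had the highest mean at each age. It stood at 210 ± 17.3, 353 ± 124 and 398 ± 26.8 TPM (SD, n = 3 each). Muscle fibre markers summed to 45322 to 54093 TPM at 1D, 63454 to 68033 TPM at 14D and 66960 to 71428 TPM at 28D. At 28D 7 of 15 were higher and 3 lower, or 5 and 3 after quantile normalization. From 1D to 14D the mean of ACTA1 went from 12345 to 23680 TPM and that of MYL1 from 10706 to 16375 TPM. Both were called higher at 14D as deposited (adjusted p = 0.00103 and 0.0195, limma) but not after quantile normalization (0.283 and 0.862). The 28D sum holds a large part of MB, which stood at 307, 4042 and 100 TPM at 14D and at 12898, 10763 and 11242 TPM at 28D. From 14D to 28D the median log2 change of the 15 was -0.29, with 1 called higher and 0 lower. Red blood cell markers summed to 269 to 514 TPM, 49.7 to 82.6 TPM and 64.0 to 75.7 TPM at the 3 ages, with 1 of 5 lower at 28D and 0 higher. The globin genes HBAA, HBA1, HBBA and HBE1 were among those not matched, so this sum cannot measure red blood cell content. The lower marker was the globin gene HBAD, at 420, 267 and 247 TPM at 1D and at 1.30 TPM or less in every later library. TAL1, SLC4A1, RHAG and EPB42 were not called as deposited, so the fall of the sum was that of HBAD. Without 1D replicate 1 SLC4A1, RHAG and EPB42 were called higher at 14D (adjusted p = 0.0183, 0.0288 and 0.00402, limma). At 28D TAL1, SLC4A1 and EPB42 were then called higher (0.00959, 0.00952 and 0.00132). After median-ratio rescaling 2 of the 5 were called higher at 28D and 1 lower. None of those of the fibre, fibroblast, endothelial, macrophage and red blood cell lists was at 0 throughout an age. Their part in the members' levels was not tested.

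The members lie on 5 different chromosomes of the reference assembly. Genes next to them were read in the same fit where their values passed the filter. Beside G0S2, LOC102086357 stood at 0.557 ± 0.324 TPM at 1D and 2.15 ± 1.32 TPM at 28D (adjusted p = 0.0402, limma; lost without any 1D library, 0.0592 to 0.137), and CAMK1G was too low to test, at 1.04 TPM or less. UVRAG, next to DGAT2, stood at 5.24 ± 0.571 TPM at 1D and 7.38 ± 0.332 TPM at 28D (adjusted p = 0.0265, limma; lost without 1D replicate 3 or 28D replicate 1 or 3, 0.0521 to 0.0949). CERS5 and SMARCD1, on either side of GPD1, were at 14.3 ± 1.47 and 17.8 ± 2.43 TPM at 1D and at 8.58 ± 2.10 and 12.3 ± 2.05 TPM at 28D, and both fell as deposited (adjusted p = 0.0146 and 0.0198) but not after median-ratio rescaling (0.163 and 0.567). Leaving out 28D replicate 3 also ended both calls (0.0582 and 0.078), and leaving out 1D replicate 1 or 3 that of SMARCD1 (0.0785 and 0.0535). ST6GAL1, beside ADIPOQ, stood at 15.9 ± 2.68, 13.9 ± 1.03 and 20.2 ± 2.67 TPM and did not pass at 28D as deposited (adjusted p = 0.111, or 0.0026 and higher after median-ratio rescaling). TUBB6 and IMPA2, around CIDEA, both fell at 28D against 1D: TUBB6 was at 108 ± 10.7 TPM and then 34.1 ± 4.06 TPM (adjusted p = 7.39e-06), IMPA2 at 49.0 ± 8.68 TPM and then 19.6 ± 7.63 TPM (0.00626).

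Genes most like each member in course were found by the Pearson correlation of log2(TPM + 1) over the 9 libraries, which describes likeness and carries no test. For DGAT2 they were NDUFV2 (r = 0.991), which encodes a subunit of respiratory complex I, and DNAJC28 (0.99). For G0S2 they were CLEC3B (0.991), SERINC3 (0.988) and MAPRE3 (0.987). For GPD1 they were PGM1, phosphoglucomutase (0.997), PRR33 (0.993) and ABHD17A (0.992), and for ADIPOQ PIK3IP1 (0.989), HAX1 (0.980) and NDUFV1 (0.979), a further subunit of complex I. For CIDEA they were MBTD1 (0.968), LPAR4 (0.964) and LRRN4 (0.962). Likeness on this scale takes no account of size: PGM1 stood at 105 ± 12.6, 776 ± 66.3 and 734 ± 60.7 TPM and NDUFV2 at 295 ± 7.14, 471 ± 62.2 and 601 ± 33.9 TPM (SD, n = 3 each), so NDUFV2 spanned a log2 change of 1.02 from 1D to 28D and DGAT2 one of 7.75.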

How the data were processed

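Total RNA of frozen breast muscle was sequenced on an Illumina system (per the labels' protocols), and STAR and Cufflinks are named in the submitters' processing notes with no role. The genome build, the annotation and how TPM was computed are not given in the sources used here. TPM was deposited by the authors in an mRNA and an lncRNA table that together sum to 991186 to 993735 TPM per library, so a rise of some entries lowers the values of others. The mRNA table alone summed to 835976 to 844829 TPM at 1D. At 14D it summed to 737968 to 787201 TPM and at 28D to 761954 to 790319 TPM. The part of this lower sum in the calls against 1D was not tested. Of 12 value columns 9 matched a sample title, and 3 matched no label and were not used, so the planned 2Y comparisons were not analysed here. Symbols came from the RefSeq gene table of assembly bColLiv1.pat.W.v2 (12256 of 12918 identifiers found).

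The 11951 genes that reached 1 TPM in 3 or more libraries were tested with limma 3.58.1 in R 4.3.3 (1 mean per stage, eBayes with trend, two-sided, Benjamini-Hochberg) on log2(TPM + 1), which understates changes of low genes. The test was checked on simulated data. Alternatives were pseudocounts of 0.1 and 0.5, no filter, median-ratio rescaling, quantile normalization, a replicate block and leaving out each library. The members and the gene lists were chosen with earlier results of these data known. Genes were named by rule: all members, 3 relatives of each, up to 4 called genes with the largest change per lipid list and comparison (or, with none called, the 2 with the highest mean), and the 3 most correlated genes per member. Neighbouring genes were added by position. Some genes that the rule names are not reported here.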

Additional observations from a re-analysis of the deposited data

How the results depend on the processing

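Every log2 change of the members from 1D to 14D and from 1D to 28D stayed above 0 under each alternative run. Median-ratio rescaling moved some of them by more than the spread between libraries, to 1.63 (ADIPOQ, 14D against 1D), 6.41, 2.43 and 0.97 (G0S2, ADIPOQ and CIDEA, 28D against 1D), and quantile normalization gave 1.64 and 0.99 (ADIPOQ, 14D, and CIDEA, 28D, against 1D). Median-ratio rescaling divides all genes of a library by 1 factor. Against 1D it moved the median of all tested genes from -0.31 to 0.01 at 14D and from -0.38 to -0.01 at 28D. Quantile normalization gave medians of 0.01 and 0.002. Leaving out one library gave 34 to 59 called lipid genes for 14D against 1D, and for 28D against 14D 23 to 204 called genes in all and 1 to 3 lipid genes. No residual pairing was seen between libraries of the same replicate number (correlations of deviations from the stage means between -0.07 and 0.05). These correlations cover all tested genes together, so they cannot settle whether a number marks libraries of shared origin. With a replicate block the comparison of 28D with 14D called 96 genes and 1 lipid gene, which was KLF5. The block also called GPD1L lower at 14D and 28D against 1D (adjusted p = 0.0326 and 0.0267, limma). Of 3078 values of named genes under the alternatives, 116 lost their call and 44 gained one, and none changed direction with a call. Of 630 counts of called genes per list and direction, 96 moved by more than 1.5 times. Since TPM holds no depth, the low 1D values of DGAT2 and GPD1 carry an unknown counting error.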
